A study of Mus musculus with 40 samples.

Results

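The uterine cervix was compared with the myometrium in pregnant mice that had received human chorionic gonadotropin (hCG), using the 10 cervix and the 10 myometrium RNA-seq libraries of hCG-treated mice, 20 of the 40 libraries of the study. All mice were pregnant C57BL/6 animals at 18.5 days post coitum, and hCG was given by intraperitoneal injection. The other 20 libraries, 10 of each tissue, came from mice injected with phosphate-buffered saline (PBS) in the same way, and they are used here only to show where the tissue difference under hCG departs from that under PBS. The labels name neither the age of the mice, nor the dose, nor the time between injection and collection, and no genotype or transgene is named for any group. Each library is total RNA from a piece of whole tissue and holds every cell type in that piece.

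The cervix is the collagen-rich canal that keeps the uterus closed during pregnancy and softens before birth. Its outer part is lined by stratified squamous epithelium like that of the vagina, its canal by mucus-secreting columnar epithelium, and its wall is mostly connective tissue with some smooth muscle. The myometrium is the smooth muscle wall that delivers the young, and its excitability is set by ion channels, gap junctions and receptors for oxytocin and prostaglandins. hCG acts on the luteinizing hormone receptor, which is known mainly from the ovary.

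Levels are given as CPM, each library's counts scaled to a common total and for library composition, and 3 values in a row are the lowest, the median and the highest of the 10 libraries of a tissue. CPM is not corrected for gene length, so levels are compared between tissues and not between genes. Differences are log2 values of cervix minus myometrium with their standard error, and adjusted p-values are from edgeR's quasi-likelihood test with Benjamini-Hochberg adjustment over all 14974 genes tested, called at 0.05. Libraries are numbered, but nothing in the labels says that a number stands for a mouse, so the p-values measure the spread between these libraries.

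Libraries held 6613775 to 22274244 counts in the cervix and 5449239 to 20603741 in the myometrium. The first principal component held 52.11% of the variance and separated the tissues, and the next held 11.21% and was led by cervix library 5. That library had the lowest summed squamous markers of the cervix (1489 CPM, against 2051 to 18742 CPM in the other 9), the highest summed smooth muscle markers (26684 CPM, against 1135 to 13850 CPM) and the highest summed urothelium markers (2633 CPM). Cervix library 1 stood alone in summed skeletal muscle markers (7039 CPM, against 31.6 to 347 CPM in the other 9), and cervix library 3 was highest in adipocyte markers (3048 CPM). In the myometrium, 5 libraries had more than 1000 CPM of Afp, the fetal alpha-fetoprotein. Without those 5 libraries 4405 of 15881 genes were called (27.7%, against 43.7% with them). Fewer libraries enter that fit, here and wherever those 5 are left out below. Of the 6547 genes called with them, 6536 kept their direction and 3962 their call. Over all genes tested the median log2 shift was -0.041. Myometrium library 3 had 5.22% of its counts in Lars2, a mitochondrial tRNA synthetase gene, against at most 0.713% in the other hCG libraries. Without library 3, 6188 of 15140 genes were called.

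The tissues differed in 6547 of the 14974 genes tested (43.7%), of which 3639 (24.3%) were higher in the cervix and 2908 (19.4%) higher in the myometrium. When the difference was tested against 2-fold, 1167 genes (7.79%) passed, 633 higher in the cervix and 534 higher in the myometrium. The estimate was 8-fold or more for 296 genes called higher in the cervix and 189 called higher in the myometrium. In 462 genes every cervix library lay above every myometrium library, in 681 every myometrium library lay above every cervix library, and these made up 7.63% of the genes tested. The median log2 difference over all genes tested was 0.07. With so many calls, each count in a list below is to be read against these shares, 24.3% and 19.4%. Most genes named below were chosen for a large difference or a small p. Lack of overlap among them is therefore no further support for a difference.

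Genes of stratified squamous epithelium had the highest median difference of any gene list examined. Of 13 squamous markers tested, 12 were higher in the cervix and none in the myometrium, against 24.3% and 19.4% of all genes tested, with a median log2 difference of 8.29. Krt17 did not pass, and Krt16 and Lgals7 were not tested. In bulk tissue, fewer cells of a type and less RNA per cell cannot be told apart, here and in every result that follows. Krt5, a keratin of basal squamous cells (chr15:101707069-101712905 in GRCm38), stood at 212, 1260 and 2993 CPM in the cervix and 0, 0.198 and 0.505 CPM in the myometrium (log2 difference 12.56 ± 0.588, adjusted p = 3.02e-12). All 10 cervix libraries lay above all 10 myometrium libraries, although cervix library 5 was the lowest of its tissue. Krt15, another basal keratin, was measured at 207, 448 and 610 CPM in the cervix and 0, 0 and 0.442 CPM in the myometrium (log2 difference 12.13 ± 0.467, adjusted p = 1.11e-13). Trp63, the transcription factor that specifies stratified epithelium, had 89.1, 199 and 300 CPM in the cervix and 0.32, 0.604 and 1.08 CPM in the myometrium (log2 difference 8.29 ± 0.278, adjusted p = 1.13e-14), a 313-fold difference. Neither gene overlapped between the tissues, and unlike Krt13 both kept a level of at least 89.1 CPM in each cervix library. Krt13, a keratin of the upper layers of non-cornified squamous epithelium (chr11:100117327-100121566), ranged most widely, at 1.49, 1412 and 4547 CPM in the cervix and 0, 0.0465 and 0.379 CPM in the myometrium (log2 difference 13.93 ± 1.16, adjusted p = 8.49e-09). Its lowest cervix value was that of library 5 and its highest that of library 9, and the groups still did not overlap.

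Genes of the cornified envelope, the cross-linked protein shell of terminally differentiated squamous cells, followed the same direction. Of 38 listed genes only 15 had counts enough to be tested, and 12 of these were higher in the cervix and none in the myometrium (median log2 difference 4.54). The 3 tested genes that did not pass were Cdsn, Ppl and Sbsn. Sprr1a, a small proline-rich envelope precursor (chr3:92483954-92485881), stood at 39.3, 302 and 501 CPM in the cervix and 0, 0.735 and 2.19 CPM in the myometrium (log2 difference 8.41 ± 0.544, adjusted p = 1.91e-10). Tgm5, a transglutaminase that cross-links the envelope, was at 4.72, 39.5 and 80.9 CPM in the cervix and 0, 0 and 0.16 CPM in the myometrium (log2 difference 9.45 ± 0.71, adjusted p = 1.64e-09). Rptn, which encodes the envelope protein repetin, was at 3.04, 16.7 and 280 CPM in the cervix and 0, 0 and 0.358 CPM in the myometrium (log2 difference 9.44 ± 1.09, adjusted p = 6.77e-07). The median of these myometrium libraries was 0 for Tgm5 and for Rptn, while the cervix libraries spread from 3.04 CPM in library 7 to 280 CPM in library 1 for Rptn. Krt10, the keratin of cornifying layers, had 6.5, 155 and 1359 CPM in the cervix and 2.23, 2.78 and 3.61 CPM in the myometrium (log2 difference 6.77 ± 0.868, adjusted p = 2.89e-06). Its cervix values spanned from 6.5 CPM in library 5 to 1359 CPM in library 1, with no overlap with the myometrium. Spink5, a protease inhibitor of this epithelium picked here after its values were seen, was not tested because cervix library 5 held almost none of it, yet it was at 0.248, 311 and 1102 CPM in the cervix and 0, 0 and 0.16 CPM in the myometrium. In all, 24 genes with a cervix median of at least 10 CPM and a myometrium median under 1 CPM were left out by the filter on low counts, 21 of them lowest in cervix library 5, against 1 gene the other way round.

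The junctions that hold such an epithelium together were less uniform. Among 29 tested genes of desmosomes, hemidesmosomes and tight junctions, 13 were higher in the cervix and 2 in the myometrium, with a median log2 difference of 0.41. Pkp1, a desmosomal plakophilin of stratified epithelia, stood at 8.07, 196 and 608 CPM in the cervix and 0, 0 and 0.821 CPM in the myometrium (log2 difference 10.43 ± 0.873, adjusted p = 8.52e-09). Col17a1, the hemidesmosomal collagen that anchors basal cells, was 217-fold higher, at 12.9, 213 and 426 CPM in the cervix and 0, 0.877 and 1.9 CPM in the myometrium (log2 difference 7.76 ± 0.575, adjusted p = 1.56e-09). Gjb6, the gap junction protein connexin 30, had 12.8, 17.6 and 66.5 CPM in the cervix and 0.093, 0.201 and 0.96 CPM in the myometrium (log2 difference 6.54 ± 0.452, adjusted p = 4.66e-10). None of these 3 overlapped, whereas the tight junction genes Ocln, Cgn and Tjp1 did not pass the test in either direction.

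Mucus genes of columnar epithelium were higher in the cervix, with library 5 as the exception. Of 17 mucin and mucosal defence genes tested, 7 were higher in the cervix and 2 in the myometrium (median log2 difference 0.83), and without cervix library 5 the counts were 11 and 3. Muc5b, the gel-forming mucin of cervical mucus (chr7:141839059-141873089), was at 2.65, 5073 and 12856 CPM in the cervix and 0.199, 0.663 and 1.78 CPM in the myometrium (log2 difference 12.89 ± 1.0, adjusted p = 3.15e-09). The value of cervix library 5, 2.65 CPM, was the lowest of the cervix by far, yet it still lay above the highest myometrium value. Tff1, a trefoil peptide secreted with mucins, was at 0.455, 628 and 2352 CPM in the cervix and 0, 0.0298 and 0.995 CPM in the myometrium (log2 difference 13.25 ± 1.18, adjusted p = 2.04e-08). Agr2, an endoplasmic reticulum protein needed to fold mucins, was 153-fold higher, at 4.84, 296 and 738 CPM in the cervix and 1.02, 2.16 and 3.66 CPM in the myometrium (log2 difference 7.25 ± 0.657, adjusted p = 2.44e-08). Cervix library 5 was again the lowest for both, and for Tff1 it overlapped the myometrium. Clca1, a secreted goblet cell protein, was at 3.64, 4726 and 7626 CPM in the cervix and 0.688, 3.17 and 8 CPM in the myometrium (log2 difference 10.23 ± 0.925, adjusted p = 2.38e-08). Ern2, the sensor of unfolded protein known from mucus-secreting cells, had 3.15, 22.9 and 70.1 CPM in the cervix and 0, 0 and 0.136 CPM in the myometrium (log2 difference 9.5 ± 0.682, adjusted p = 7.88e-10).

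The general markers of columnar and glandular epithelium did not separate the tissues in that way. Of 17 tested, 6 were higher in the cervix and 3 in the myometrium (median log2 difference 0.43), and 9 and 5 were called without cervix library 5. Summed over the list, these markers stood at 2166, 8155 and 19355 CPM in the cervix and at 2020, 4041 and 5754 CPM in the myometrium, so the myometrium libraries also held epithelial RNA. Prom1, a membrane protein of glandular epithelium, ran against the mucus genes, at 8.65, 226 and 297 CPM in the cervix and 1202, 1663 and 3380 CPM in the myometrium (log2 difference -3.28 ± 0.401, adjusted p = 1.4e-06). Every myometrium library was above every cervix library, a 9.71-fold difference. Prap1, known from the epithelium of the pregnant mouse uterus, was likewise at 0.88, 91.8 and 6309 CPM in the cervix and 6834, 18967 and 28291 CPM in the myometrium (log2 difference -4.26 ± 1.27, adjusted p = 0.00986), with no overlap. It did not pass with the deeper cervix libraries 1 to 6 alone (-3.99, adjusted p = 0.064).

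**Figure D1:**
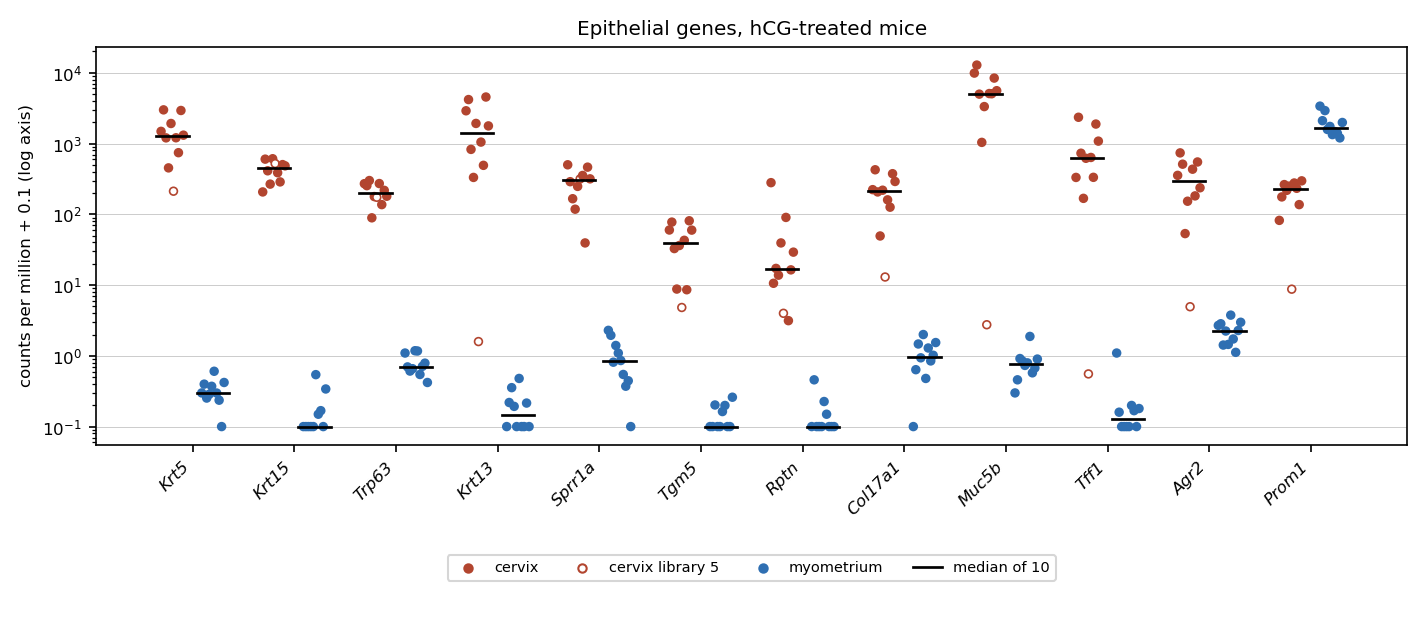
CPM plus 0.1 on a log axis for 12 epithelial genes in the 10 cervix (red) and 10 myometrium (blue) libraries of hCG-treated mice, with bars at the medians and cervix library 5 drawn as an open point. The keratin, envelope and mucus genes are high in the cervix, with library 5 often far below the other 9, and Prom1 is the gene higher in the myometrium.

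Promoters of these genes were read from RefSeq (GRCm38.p6), each a window of 300 bases from 250 bases before to 50 bases after the annotated start. The window was searched on both strands for TGANTCA, since AP-1 is known to act on squamous genes. These letters are looser than the AP-1 site TGA(C/G)TCA, as they take any base in the middle. Of 32851 promoters of 27025 genes, 2565 (7.81%) held it. Promoters were in the table for 10 of the 12 envelope genes called higher in the cervix, and 4 of their 11 promoters held the letters (36.4%), those of Ivl, Krtdap, Rptn and Sprr1a. Among the called squamous markers 5 of 12 genes had a promoter in the table, and 2 of their 6 promoters held it, both of them Krt13. A match is a description of letters and not a site of binding. The promoters of Sprr1a (chr3:92485832-92486131, minus strand, 2 matches), Ivl (chr3:92573686-92573985, minus strand) and Krt13 (chr11:100121517-100121816, minus strand) are shown as examples from genes that did not overlap between the tissues. Rptn, also without overlap, is not shown. The Krt13 match shown, TGAATCA, is not the AP-1 site, and the other Krt13 promoter (chr11:100120528-100120827), with 2 matches of TGACTCA, is not shown. Sequences run 5′ to 3′ on the gene's strand with the matched letters in capitals.
Sprr1a: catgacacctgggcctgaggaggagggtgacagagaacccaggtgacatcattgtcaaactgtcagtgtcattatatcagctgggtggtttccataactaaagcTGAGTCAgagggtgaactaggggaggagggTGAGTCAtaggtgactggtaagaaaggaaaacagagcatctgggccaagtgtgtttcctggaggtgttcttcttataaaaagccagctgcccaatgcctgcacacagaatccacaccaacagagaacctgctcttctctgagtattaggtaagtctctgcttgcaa
Ivl: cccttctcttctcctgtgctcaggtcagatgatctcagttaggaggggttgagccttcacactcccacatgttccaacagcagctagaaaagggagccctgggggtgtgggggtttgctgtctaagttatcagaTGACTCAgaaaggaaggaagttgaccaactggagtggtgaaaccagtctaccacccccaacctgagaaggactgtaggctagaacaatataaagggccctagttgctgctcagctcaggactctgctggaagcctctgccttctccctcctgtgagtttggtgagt
Krt13: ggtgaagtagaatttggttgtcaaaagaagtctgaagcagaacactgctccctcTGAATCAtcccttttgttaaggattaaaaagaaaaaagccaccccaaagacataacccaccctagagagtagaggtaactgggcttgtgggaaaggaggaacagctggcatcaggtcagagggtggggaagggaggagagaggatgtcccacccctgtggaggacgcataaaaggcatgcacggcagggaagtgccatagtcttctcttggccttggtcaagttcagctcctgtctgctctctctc

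Hox genes were found on both sides of the comparison. These transcription factors mark position along the body axis, and the highest-numbered members are known to be expressed furthest toward the tail, in the vagina and cervix. Of 39 Hox genes 23 were tested, and 5 of them were higher in the cervix and 10 in the myometrium (median log2 difference -0.64). Hoxa13 (chr6:52258853-52260880), of the last group in its cluster, had 4.02, 8.62 and 15.3 CPM in the cervix, and 2 counts in all 10 myometrium libraries against 1459 in the cervix. The ratio of these sums was 697, with a 95% interval of 193 to 5763 that covers counting error only. Hoxd13 (chr2:74668225-74671603), its counterpart in another cluster, had 4.32, 11.6 and 17.3 CPM in the cervix, or 1957 counts, and no count in any myometrium library, so it was at least 623-fold higher in the cervix, taking a floor of 3 counts over the group. Both genes were present in each of the 10 cervix libraries, and both were highest in cervix library 5, the library low in squamous and mucus genes.

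Several other genes of the A and D clusters were higher in the myometrium. Hoxd10 was at 1.42, 2.14 and 9.52 CPM in the cervix and 30.5, 38.2 and 58.3 CPM in the myometrium (log2 difference -3.46 ± 0.307, adjusted p = 1.73e-08), 11-fold higher in the myometrium. Hoxd9 was at 0.171, 1.6 and 7.07 CPM in the cervix and 12.4, 14.1 and 20 CPM in the myometrium (log2 difference -2.71 ± 0.401, adjusted p = 1.56e-05). Hoxa10, which is required for uterine identity and implantation, was at 10.6, 27 and 60.9 CPM in the cervix and 72.4, 90.3 and 119 CPM in the myometrium (log2 difference -1.44 ± 0.24, adjusted p = 5.62e-05). None of these 3 overlapped between the tissues. Hoxd11 (log2 difference -1.99 ± 0.312, adjusted p = 2.93e-05), Hoxd8 (log2 difference -1.35 ± 0.248, adjusted p = 0.000171), Hoxa9 (log2 difference -1.04 ± 0.297, adjusted p = 0.00757) and Hoxa11 (log2 difference -0.87 ± 0.275, adjusted p = 0.0146) were also higher in the myometrium, each with some overlap. In the B cluster Hoxb2 and Hoxb4 were higher in the cervix, with Hoxb2 at 5.21, 14 and 22.8 CPM in the cervix and 4.1, 6.66 and 8.15 CPM in the myometrium (log2 difference 1.12 ± 0.226, adjusted p = 0.000451) and Hoxb4 at 5.09, 8.9 and 12.2 CPM in the cervix and 2.7, 3.94 and 6.58 CPM in the myometrium (log2 difference 1.09 ± 0.181, adjusted p = 5.98e-05).

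**Figure D2:**
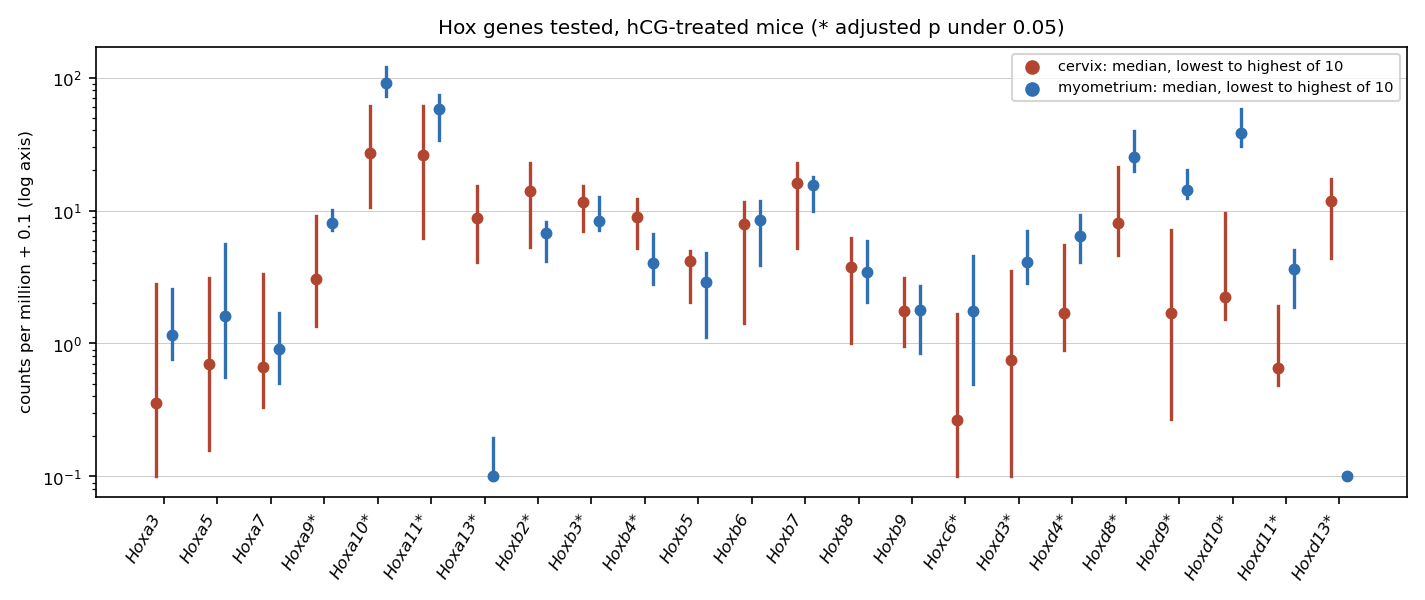
CPM plus 0.1 on a log axis for the 23 Hox genes tested, ordered by cluster and number, with points at the median of 10 libraries and lines from the lowest to the highest (red, cervix, blue, myometrium). Hoxa13 and Hoxd13 are seen in the cervix alone apart from 2 counts, and Hoxa9 to Hoxa11 and Hoxd8 to Hoxd11 are higher in the myometrium.

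Among 56 other developmental transcription factors tested, 29 were higher in the cervix and 8 in the myometrium, against 24.3% and 19.4% over all genes, with a median log2 difference of 0.73. Without cervix library 5 the myometrium count was 13. Grhl3, a factor of the epidermal barrier, was at 9.5, 37.6 and 69.8 CPM in the cervix and 0, 0 and 0.398 CPM in the myometrium (log2 difference 8.79 ± 0.526, adjusted p = 6.97e-11). Msx2, a homeobox factor active where epithelium and mesenchyme interact, was 37.8-fold higher in the cervix, at 8.57, 15.6 and 25.6 CPM in the cervix and 0.186, 0.425 and 0.918 CPM in the myometrium (log2 difference 5.24 ± 0.306, adjusted p = 4.98e-11). Eya1, a cofactor of homeobox factors, was 15-fold higher, at 6.79, 10.2 and 13.3 CPM in the cervix and 0.204, 0.673 and 0.918 CPM in the myometrium (log2 difference 3.9 ± 0.221, adjusted p = 3.6e-11). Grhl3, Msx2 and Eya1 were each without overlap. Mitotic cell cycle genes gave 4 higher in the cervix and 1 in the myometrium of 30 tested, a share below that of all genes, but without cervix library 5 the counts were 15 and 1.

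Contractile genes were higher in the myometrium, by a small margin for most. Of 40 genes of the contractile apparatus tested, 22 were higher in the myometrium and 2 in the cervix (Ldb3 and Mrtfb), against 19.4% and 24.3% of all genes tested, with a median log2 difference of -0.76. Without cervix library 5 the counts were 33 and 1, and without cervix libraries 1, 3 and 5 they were 35 and 1. They fell to 12 and 1 without the 5 Afp-rich myometrium libraries and to 11 and 3 with the deeper cervix libraries 1 to 6 alone. Actg2, the enteric-type smooth muscle actin (chr6:83512909-83536251), was at 69.3, 838 and 3418 CPM in the cervix and 2327, 3982 and 5100 CPM in the myometrium (log2 difference -1.84 ± 0.421, adjusted p = 0.00137). Acta2, the alpha smooth muscle actin (chr19:34240336-34255585), was at 278, 1821 and 5201 CPM in the cervix and 2726, 4749 and 5837 CPM in the myometrium (log2 difference -1.1 ± 0.344, adjusted p = 0.0129). Both actins overlapped between the tissues, with cervix library 5 at 3418 CPM of Actg2 and 5201 CPM of Acta2 and library R3 at 3785 CPM of Acta2, while library 1 held 69.3 and 278 CPM. Des, the muscle intermediate filament desmin, did not overlap, at 115, 433 and 970 CPM in the cervix and 1022, 1761 and 3315 CPM in the myometrium (log2 difference -1.99 ± 0.375, adjusted p = 0.000221). Tpm4, a tropomyosin of non-muscle and smooth muscle filaments, did not overlap either, at 312, 412 and 538 CPM in the cervix and 697, 782 and 1142 CPM in the myometrium (log2 difference -1.0 ± 0.126, adjusted p = 2.01e-06), a difference with a small error. Tpm1 was at 582, 877 and 3147 CPM in the cervix and 1654, 2575 and 3379 CPM in the myometrium (log2 difference -1.23 ± 0.264, adjusted p = 0.00074). Cnn1, the thin filament protein calponin, was at 45.4, 363 and 1701 CPM in the cervix and 567, 1003 and 1375 CPM in the myometrium (log2 difference -0.98 ± 0.396, adjusted p = 0.0495), just inside the threshold. Its call was lost under 22 of 37 alternatives, among them most of those that left out a single library. The fit without myometrium library 3 is counted under 2 names in both numbers. The 9 smooth muscle markers gave 6 higher in the myometrium and none in the cervix, with Myh11, Smtn and Synpo2 not called. The count was 8 without cervix library 5, but 3 without the Afp-rich libraries and 3 with the deeper cervix libraries. The median log2 difference of these markers was -0.98 in the main fit, -1.18 without the Afp-rich libraries and -0.98 with the deeper cervix libraries.

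Promoters were searched in the same way for the CArG box, the binding sequence of serum response factor, which drives many smooth muscle genes. It was found in 535 of the 32851 promoters (1.63%). Of the 22 contractile genes called higher in the myometrium, 19 had a promoter in the table, and 4 of their 23 promoters held the box (17.4%), those of Myl6, Myl9, Srf and Vcl. None of the 15 promoters of the 12 contractile genes that were not called and had a promoter held it, which says only that these letters are not in those windows. The promoters of Myl9, the regulatory light chain (chr2:156775214-156775513, plus strand), Vcl, the adhesion protein vinculin (chr14:20929148-20929447, plus strand), and Srf, the factor itself (chr17:46556113-46556412, minus strand, 2 matches), are shown with the box in capitals. In these libraries Myl9 was -1.07, Vcl -0.77 and Srf -0.54 on the log2 scale of cervix minus myometrium.
Myl9: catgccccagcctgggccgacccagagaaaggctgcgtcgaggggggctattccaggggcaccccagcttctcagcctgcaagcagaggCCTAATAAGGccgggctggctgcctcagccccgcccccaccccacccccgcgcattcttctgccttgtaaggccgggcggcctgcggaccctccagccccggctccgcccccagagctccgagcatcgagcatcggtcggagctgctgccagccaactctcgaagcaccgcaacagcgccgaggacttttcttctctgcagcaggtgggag
Vcl: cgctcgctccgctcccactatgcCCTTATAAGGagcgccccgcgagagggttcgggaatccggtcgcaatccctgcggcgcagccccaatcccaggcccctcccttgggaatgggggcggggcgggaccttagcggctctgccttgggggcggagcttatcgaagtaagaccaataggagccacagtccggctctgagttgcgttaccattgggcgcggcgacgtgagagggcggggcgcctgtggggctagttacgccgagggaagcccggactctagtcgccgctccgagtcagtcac
Srf: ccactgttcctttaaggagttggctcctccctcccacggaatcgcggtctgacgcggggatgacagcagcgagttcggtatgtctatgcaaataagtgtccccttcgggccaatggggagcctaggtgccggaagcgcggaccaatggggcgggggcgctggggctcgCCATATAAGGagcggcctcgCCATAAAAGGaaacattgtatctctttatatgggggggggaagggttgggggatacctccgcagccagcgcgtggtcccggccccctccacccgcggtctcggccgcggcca

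Ion channels split between the tissues. Of 45 tested, 14 were higher in the myometrium and 8 in the cervix (median log2 difference -0.01), near the shares of all genes. Kcnq1, a voltage-gated potassium channel, was at 1.65, 2.7 and 7.87 CPM in the cervix and 8.95, 15.6 and 21.4 CPM in the myometrium (log2 difference -1.88 ± 0.285, adjusted p = 1.97e-05). Kcnj8, the pore of an ATP-sensitive potassium channel, was at 8.4, 22.7 and 31.3 CPM in the cervix and 34.2, 50.6 and 58.9 CPM in the myometrium (log2 difference -1.2 ± 0.165, adjusted p = 6.13e-06). Both were without overlap, with every myometrium library above every cervix library.

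Receptors for the agents that start and stop contractions were compared next. Of 28 receptors and connexins tested, 13 were higher in the myometrium and 7 in the cervix (median log2 difference -0.52), against 19.4% and 24.3% of all genes tested. Oxtr, the oxytocin receptor (chr6:112473683-112491035), was at 8.9, 28.5 and 61.4 CPM in the cervix and 40.8, 67.4 and 104 CPM in the myometrium (log2 difference -1.04 ± 0.282, adjusted p = 0.00521). The myometrium was 2.05-fold higher, and the highest cervix libraries overlapped the lowest of the myometrium. It did not pass in 3 of 37 alternatives. These were the fit with all 40 libraries (-1.06, adjusted p = 0.0597), the shallower cervix libraries 7, 9, 10 and R3 (-0.65, adjusted p = 0.0851) and the 2 myometrium libraries lowest in Afp (-1.28, adjusted p = 0.153). Ptger4, a prostaglandin E receptor coupled to relaxation, was at 11.6, 16.8 and 20.7 CPM in the cervix and 28.8, 37.5 and 43 CPM in the myometrium (log2 difference -1.12 ± 0.111, adjusted p = 7.01e-08), with no overlap. Ptger2, another receptor of that class, was at 0.339, 2.03 and 7.66 CPM in the cervix and 4.7, 6.41 and 13.9 CPM in the myometrium (log2 difference -1.46 ± 0.382, adjusted p = 0.0039). Chrm3, the muscarinic receptor of smooth muscle and glands, was 11.5-fold higher in the cervix, at 3.6, 11.9 and 23.5 CPM in the cervix and 0.199, 1.02 and 1.77 CPM in the myometrium (log2 difference 3.53 ± 0.31, adjusted p = 1.46e-08), without overlap.

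The contraction-associated genes did not all follow the oxytocin receptor. Gja1, the connexin 43 that couples myometrial cells at term, was at 87.7, 336 and 426 CPM in the cervix and 156, 215 and 539 CPM in the myometrium and did not pass (log2 difference 0.29 ± 0.269, adjusted p = 0.406). Gja5, connexin 40, was 5.01-fold higher in the myometrium, at 2.26, 4.54 and 11.9 CPM in the cervix and 16.2, 26 and 42.6 CPM in the myometrium (log2 difference -2.32 ± 0.269, adjusted p = 6.46e-07), with no overlap. Ptgfr, the prostaglandin F receptor, was at 2.38, 4.07 and 13.8 CPM in the cervix and 2.8, 5.62 and 106 CPM in the myometrium and did not pass (log2 difference -1.42 ± 0.629, adjusted p = 0.0729). Its highest myometrium value was that of library 5, and without that library the log2 difference was 0.00, while without cervix library 5 it was -1.65 (adjusted p = 0.0453). Ptger3, a prostaglandin E receptor coupled to contraction, was at 6.94, 13.9 and 72.7 CPM in the cervix and 23, 34.9 and 48 CPM in the myometrium and did not pass (log2 difference -0.63 ± 0.347, adjusted p = 0.147). It passed, higher in the myometrium, in 5 of 37 alternatives. These were DESeq2, limma's voom with quality weights, a block for the replicate number, the deeper cervix libraries 1 to 6, and the fit without cervix library 7, the highest of its tissue (-1.04, adjusted p = 0.00421). Of the 19 tested genes of a panel of labour-associated genes, 8 were higher in the myometrium and 3 in the cervix (Has2, Il1b and Mmp9), with a median log2 difference of -0.63. Cxcl1, Il6 and Lhcgr of that panel were not tested.

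Prostaglandin enzymes were divided in the same way. Of 17 tested, 6 were higher in the myometrium and 3 in the cervix (median log2 difference 0.20, and -0.22 without cervix library 5), against 19.4% and 24.3% of all genes tested. Ptgs1, the constitutive cyclooxygenase, was 11-fold higher in the myometrium, at 10.3, 20.6 and 121 CPM in the cervix and 267, 385 and 462 CPM in the myometrium (log2 difference -3.47 ± 0.404, adjusted p = 7.47e-07), with no overlap. Ptgs2, the inducible cyclooxygenase, was at 2.27, 6.86 and 75 CPM in the cervix and 7.47, 10.8 and 22.7 CPM in the myometrium and did not pass (log2 difference 0.3 ± 0.528, adjusted p = 0.675). Cervix library 5 held 75 CPM of Ptgs2, and the log2 difference was -0.46 without it (adjusted p = 0.368) and -1.18 without cervix libraries 1, 3 and 5 (adjusted p = 0.00761). Ptges, which makes prostaglandin E, was 5.43-fold higher in the cervix, at 28.3, 46.9 and 89.5 CPM in the cervix and 8.05, 8.81 and 13.8 CPM in the myometrium (log2 difference 2.44 ± 0.159, adjusted p = 1.91e-10), with no overlap. Hpgd, which breaks prostaglandins down, was at 33.8, 48.2 and 130 CPM in the cervix and 27.5, 45.9 and 59 CPM in the myometrium and did not pass (log2 difference 0.47 ± 0.213, adjusted p = 0.0775), although it did at 0.54 (adjusted p = 0.0437) without cervix library 4.

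Steroid-handling enzymes gave some of the widest gaps toward the myometrium. Of 25 tested genes of steroid and retinoid metabolism, 13 were higher in the myometrium and 4 in the cervix, among them Aldh1a3, Crabp1 and Crabp2, with a median log2 difference of -0.93. Akr1c18, the enzyme that inactivates progesterone, was 65.9-fold higher in the myometrium, at 0.786, 19.9 and 69.8 CPM in the cervix and 825, 1470 and 2892 CPM in the myometrium (log2 difference -6.04 ± 0.509, adjusted p = 8.16e-09). Hsd11b1, which regenerates active glucocorticoid, was 24.3-fold higher, at 6.94, 11.4 and 73.5 CPM in the cervix and 399, 538 and 971 CPM in the myometrium (log2 difference -4.6 ± 0.485, adjusted p = 1.9e-07). Srd5a1, a steroid 5-alpha-reductase that also reduces progesterone, was at 86, 200 and 334 CPM in the cervix and 388, 656 and 836 CPM in the myometrium (log2 difference -1.55 ± 0.217, adjusted p = 7.53e-06). Every myometrium library exceeded every cervix library for these 3 genes. Aldh1a2, which makes retinoic acid, was 8.14-fold higher in the myometrium, at 9.29, 45.5 and 64.9 CPM in the cervix and 207, 320 and 566 CPM in the myometrium (log2 difference -3.03 ± 0.27, adjusted p = 1.89e-08), also with no overlap. Cyp11a1, the side-chain cleavage enzyme that starts steroid synthesis, was at 0.1, 0.573 and 1.13 CPM in the cervix and 7.76, 41.3 and 912 CPM in the myometrium (log2 difference -8.06 ± 0.997, adjusted p = 1.76e-06), and Hsd3b1, which makes progesterone, was at 0, 0.149 and 0.455 CPM in the cervix and 1.83, 37.2 and 1393 CPM in the myometrium (log2 difference -10.07 ± 1.39, adjusted p = 7.08e-06). Both were highest in myometrium library 5, without which the log2 differences were -6.85 for Cyp11a1 and -9.17 for Hsd3b1. Without the 5 Afp-rich libraries, which include it, they were -5.39 and -5.91. Under limma's voom with quality weights Hsd3b1 no longer passed (log2 difference -7.85, adjusted p = 0.0713).

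The receptor on which hCG acts had few counts in all but 1 library. Lhcgr (chr17:88716384-88792059) was too low to be tested and was at 0, 0 and 0.39 CPM in the cervix and 0, 0 and 69.9 CPM in the myometrium. The single high value was that of myometrium library 5, which was also the highest for Cyp11a1 (912 CPM), Hsd3b1 (1393 CPM) and Ptgfr (106 CPM), genes known from the corpus luteum. The part of ovarian RNA in that library was not tested. Among 22 steroid receptors and cofactors tested, 8 were higher in the cervix and 2 in the myometrium. Pgr, the progesterone receptor, was at 7.57, 452 and 605 CPM in the cervix and 233, 293 and 478 CPM in the myometrium and did not pass (log2 difference 0.31 ± 0.399, adjusted p = 0.554). Its lowest value was that of cervix library 5, and without cervix libraries 1, 3 and 5 it was higher in the cervix, at a log2 difference of 0.63 (adjusted p = 0.00165). Esr1, the main estrogen receptor of the uterus, was at 30.5, 305 and 450 CPM in the cervix and 292, 374 and 499 CPM in the myometrium and did not pass (log2 difference -0.42 ± 0.276, adjusted p = 0.226).

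**Figure D3:**
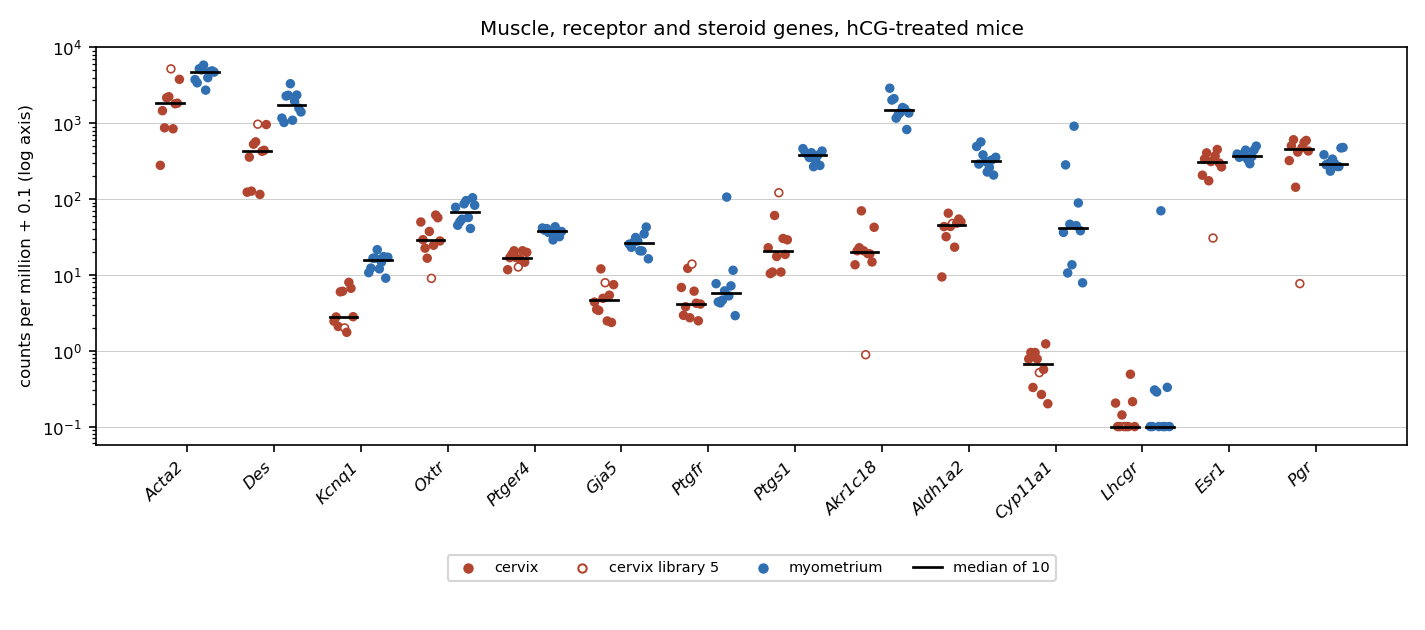
CPM plus 0.1 on a log axis for 14 muscle, receptor, prostaglandin and steroid genes in the 10 cervix (red) and 10 myometrium (blue) libraries of hCG-treated mice, with bars at the medians and cervix library 5 as an open point. Ptgs1, Akr1c18, Aldh1a2 and Cyp11a1 are separated by tissue, Acta2 overlaps between the tissues, with cervix library 5 the highest of the cervix, and Lhcgr and Ptgfr each have 1 high myometrium library.

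The extracellular matrix was higher in the myometrium for more genes than not, and the main fibrillar collagens were not part of that difference. Of 46 genes of fibrillar matrix and crosslinking tested, 27 were higher in the myometrium and 3 in the cervix (Fmod, Col12a1 and Col15a1), with a median log2 difference of -0.70. Col1a2, a chain of collagen I, was at 1820, 4975 and 6963 CPM in the cervix and 2242, 3727 and 5855 CPM in the myometrium and did not pass (log2 difference 0.19 ± 0.264, adjusted p = 0.58). Col3a1, collagen III, was at 2575, 5592 and 8000 CPM in the cervix and 3410, 6416 and 9957 CPM in the myometrium and did not pass (log2 difference -0.22 ± 0.219, adjusted p = 0.428). Both collagens overlapped almost completely between the tissues. Lox, the enzyme that cross-links collagen and elastin, was instead at 42.6, 82.2 and 138 CPM in the cervix and 286, 406 and 845 CPM in the myometrium (log2 difference -2.28 ± 0.222, adjusted p = 5.68e-08), with no overlap. Loxl2, a relative of Lox, was at 53.2, 101 and 153 CPM in the cervix and 216, 393 and 522 CPM in the myometrium (log2 difference -1.86 ± 0.195, adjusted p = 1.6e-07). Fn1, fibronectin, was 4.92-fold higher in the myometrium, at 463, 930 and 1984 CPM in the cervix and 3489, 5030 and 7399 CPM in the myometrium (log2 difference -2.3 ± 0.249, adjusted p = 2.53e-07). Fbln2, the elastic fibre protein fibulin 2, was 6.61-fold higher, at 20.3, 69.4 and 122 CPM in the cervix and 215, 372 and 665 CPM in the myometrium (log2 difference -2.72 ± 0.289, adjusted p = 1.96e-07). Fn1, Loxl2 and Fbln2 were each without overlap. Of 31 basement membrane and integrin genes tested, 21 were higher in the myometrium and 3 in the cervix, among them Itgb5, an integrin subunit, at 66.1, 101 and 154 CPM in the cervix and 257, 353 and 426 CPM in the myometrium (log2 difference -1.67 ± 0.168, adjusted p = 8.69e-08).

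Proteases that remodel the matrix followed it. Of 34 proteases and inhibitors tested, 21 were higher in the myometrium and 6 in the cervix (median log2 difference -0.83). Ctsb, the lysosomal protease cathepsin B, was 13-fold higher in the myometrium, at 351, 451 and 1162 CPM in the cervix and 4102, 6730 and 10210 CPM in the myometrium (log2 difference -3.7 ± 0.236, adjusted p = 1.5e-10), and cervix library 3 alone exceeded 1000 CPM in its tissue. Ctsl, cathepsin L, was at 179, 277 and 432 CPM in the cervix and 777, 952 and 1144 CPM in the myometrium (log2 difference -1.78 ± 0.143, adjusted p = 4e-09). Plau, the urokinase that activates plasminogen, was at 39.7, 64.1 and 126 CPM in the cervix and 158, 216 and 296 CPM in the myometrium (log2 difference -1.76 ± 0.165, adjusted p = 3.41e-08). Serpine2, an inhibitor of such proteases, was 5.63-fold higher in the myometrium, at 15.3, 29.5 and 47.5 CPM in the cervix and 96.7, 148 and 296 CPM in the myometrium (log2 difference -2.49 ± 0.225, adjusted p = 2.04e-08). None of these 4 overlapped, but they were picked for a small p in this list and do not stand for its other members. Among these 4 the inhibitor was higher in the same tissue as the proteases. Mmp9, a gelatinase of leukocytes, was higher in the cervix at 2.75, 5.65 and 28.4 CPM in the cervix and 2.79, 3.74 and 5.78 CPM in the myometrium (log2 difference 1.22 ± 0.366, adjusted p = 0.0101), but not without cervix libraries 1, 3 and 5 (log2 difference 0.24, adjusted p = 0.357).

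Hyaluronan is the water-binding polysaccharide that accumulates in the cervix before birth, and its synthase genes Has2 and Has3 were higher in the cervix. Has1, the other synthase of the list, was not among the genes called. Of 11 tested genes, 3 were higher in the cervix and 3 in the myometrium, near the shares of all genes tested (24.3% and 19.4%). Has2, the main hyaluronan synthase of the cervix (chr15:56665627-56694546), was 16.2-fold higher there, at 13.1, 192 and 318 CPM in the cervix and 8.21, 11.2 and 15.3 CPM in the myometrium (log2 difference 4.02 ± 0.419, adjusted p = 1.63e-07). Cervix library 5 was the lowest and fell within the myometrium range, and the other 9 lay above it. Has3, another synthase, was 9.34-fold higher in the cervix, at 16.2, 52.2 and 87.6 CPM in the cervix and 3.98, 5.18 and 8.7 CPM in the myometrium (log2 difference 3.22 ± 0.289, adjusted p = 1.99e-08), with no overlap. Cd44, a hyaluronan receptor, was at 85.5, 170 and 361 CPM in the cervix and 41.8, 56.5 and 68.4 CPM in the myometrium (log2 difference 1.71 ± 0.211, adjusted p = 1.62e-06), with no overlap. The 3 genes higher in the myometrium were Cemip2, Hyal1 and Itih5, of which Hyal1, a hyaluronidase, was at 7.3, 10.1 and 13.8 CPM in the cervix and 12.7, 20.9 and 25.8 CPM in the myometrium (log2 difference -1.0 ± 0.135, adjusted p = 4.96e-06).

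Growth factor genes differed gene by gene. Of 37 genes of the TGF-beta and BMP pathway tested, 8 were higher in the myometrium and 7 in the cervix, shares near those of all genes, and 12 and 7 without cervix library 5. Tgfb2 was 14.8-fold higher in the myometrium, at 31.8, 71.1 and 99.6 CPM in the cervix and 552, 1006 and 1563 CPM in the myometrium (log2 difference -3.89 ± 0.224, adjusted p = 4.21e-11), whereas Tgfb1 was at 2.73, 4.07 and 6.56 CPM in the cervix and 1.99, 6.08 and 7.4 CPM in the myometrium and did not pass (log2 difference -0.31 ± 0.21, adjusted p = 0.236). Fst, follistatin, which binds and blocks activin, was 10.9-fold higher in the myometrium, at 7.78, 18 and 40.9 CPM in the cervix and 159, 211 and 334 CPM in the myometrium (log2 difference -3.44 ± 0.289, adjusted p = 7.86e-09). Bmp7, a bone morphogenetic protein, was the reverse, at 1.27, 3.4 and 18.9 CPM in the cervix and 0, 0.36 and 0.821 CPM in the myometrium (log2 difference 3.61 ± 0.492, adjusted p = 5.47e-06). Tgfb2, Fst and Bmp7 were each without overlap.

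In the FGF family Fgf10 and Fgfr3 were higher in the cervix and Fgfr2 was higher in the myometrium. Of 23 genes of the EGF and FGF families tested, 6 were higher in the cervix and 3 in the myometrium (6 and 6 of 21 without cervix libraries 1, 3 and 5). Fgf10, a mesenchymal ligand that signals to epithelium, was 21.1-fold higher in the cervix, at 4.97, 11.1 and 16.6 CPM in the cervix and 0, 0.51 and 1.14 CPM in the myometrium (log2 difference 4.4 ± 0.398, adjusted p = 2.08e-08). Fgfr3 was 14.3-fold higher in the cervix, at 21.3, 32.2 and 71.9 CPM in the cervix and 1.19, 2.54 and 4.15 CPM in the myometrium (log2 difference 3.83 ± 0.243, adjusted p = 1.41e-10). Fgfr2, the receptor known to bind Fgf10 in its epithelial form, was 3.4-fold higher in the myometrium, at 77.5, 95.4 and 132 CPM in the cervix and 282, 345 and 391 CPM in the myometrium (log2 difference -1.76 ± 0.0985, adjusted p = 2.96e-11). Counts per gene do not separate the forms of Fgfr2, and no library of either tissue crossed into the range of the other for these 3 genes. Erbb4, a receptor for neuregulins, was 24.4-fold higher in the myometrium, at 0, 0.679 and 4.54 CPM in the cervix and 26.2, 36.2 and 74 CPM in the myometrium (log2 difference -4.61 ± 0.531, adjusted p = 6.64e-07), with no overlap.

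Of 31 Wnt pathway genes tested, 11 were higher in the cervix and 5 in the myometrium, and 11 and 9 without cervix library 5. Over all genes tested the shares were 24.3% and 19.4%, which also apply to the hedgehog and cyclic nucleotide lists below. Fzd10, a Wnt receptor, was 18-fold higher in the cervix, at 1.61, 7.2 and 16.8 CPM in the cervix and 0.115, 0.412 and 0.791 CPM in the myometrium (log2 difference 4.17 ± 0.399, adjusted p = 4.46e-08). The secreted Wnt antagonists were divided, with Sfrp2 at 7.8, 19.3 and 34.5 CPM in the cervix and 1.19, 3.21 and 5.43 CPM in the myometrium (log2 difference 2.74 ± 0.281, adjusted p = 1.21e-07) and Sfrp4 at 39.4, 60 and 152 CPM in the cervix and 481, 641 and 870 CPM in the myometrium (log2 difference -2.94 ± 0.235, adjusted p = 3.83e-09). Sfrp2 was without overlap toward the cervix and Sfrp4 toward the myometrium. Of 11 hedgehog pathway genes tested, 2 were higher in the cervix and 1 in the myometrium. Of 33 genes of cyclic nucleotide and relaxant signalling tested, 9 were higher in the myometrium and 5 in the cervix, among the former Nos3, the endothelial nitric oxide synthase, at 1.77, 4.68 and 10.1 CPM in the cervix and 10.8, 14.1 and 18.2 CPM in the myometrium (log2 difference -1.5 ± 0.231, adjusted p = 2.42e-05), with no overlap.

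Vessel and macrophage genes were higher in the myometrium. Of 12 endothelial markers tested, 11 were higher there and none in the cervix (median log2 difference -1.10), with Vwf not called. All 5 lymphatic markers tested were higher there (median -2.18). Cdh5, the cadherin of endothelial junctions, was at 14.4, 28.9 and 37 CPM in the cervix and 60.7, 92.9 and 159 CPM in the myometrium (log2 difference -1.82 ± 0.193, adjusted p = 1.95e-07). Flt4, the receptor of lymphatic growth, was 5.56-fold higher, at 3.63, 8.52 and 16.8 CPM in the cervix and 28.7, 48.1 and 69.7 CPM in the myometrium (log2 difference -2.48 ± 0.259, adjusted p = 1.6e-07). Neither overlapped. Of 16 macrophage and monocyte markers tested, 11 were higher in the myometrium and 1 in the cervix (Cd14), and Csf1r, the receptor on which macrophages depend, was at 25.5, 66.4 and 127 CPM in the cervix and 122, 186 and 236 CPM in the myometrium (log2 difference -1.37 ± 0.219, adjusted p = 3.75e-05). Csf1, the ligand of that receptor, was 18.8-fold higher in the myometrium, at 24.8, 34.8 and 180 CPM in the cervix and 422, 962 and 1666 CPM in the myometrium (log2 difference -4.24 ± 0.381, adjusted p = 2.01e-08), with no overlap. Of the other lists, fibroblast markers gave 6 higher in the myometrium and 1 in the cervix of 11, pericyte markers 4 and 1 of 8, mesothelium markers 5 and 0 of 7, lymphocyte markers 1 and 0 of 6, red cell markers 3 and 0 of 4, mast cell markers 1 and 1 of 7, and antigen presentation genes 3 and 0 of 18. Without cervix library 5 the red cell count was 1. Without the Afp-rich libraries it was 0, that of mesothelium 2 (median log2 difference -1.21, against -1.24 with all) and that of pericytes 2 (-0.74, against -0.63). The mesothelium count was 3 without myometrium library 3.

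Complement was higher in the myometrium as well. Of 21 genes tested, 14 were higher there and 2 in the cervix (Cfb and Cfd), with a median log2 difference of -0.97. C3, the central component, was 10.3-fold higher in the myometrium, at 204, 669 and 2541 CPM in the cervix and 4320, 9471 and 12233 CPM in the myometrium (log2 difference -3.37 ± 0.387, adjusted p = 6.29e-07). Every myometrium library lay above every cervix library.

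Chemokines and alarmins were divided by gene. Of 30 chemokine and cytokine genes tested, 12 were higher in the cervix and 8 in the myometrium, against 24.3% and 19.4% of all genes tested. Il33, an alarmin stored in barrier cells, was 27.6-fold higher in the cervix, at 37.9, 216 and 377 CPM in the cervix and 4.69, 7.71 and 12.5 CPM in the myometrium (log2 difference 4.78 ± 0.332, adjusted p = 4.83e-10). Ccl11, the eosinophil chemokine eotaxin, was 14-fold higher, at 14.2, 38 and 43.5 CPM in the cervix and 1.3, 2.29 and 3.67 CPM in the myometrium (log2 difference 3.81 ± 0.253, adjusted p = 2.46e-10). Cxcl5, a neutrophil chemokine of epithelium, was 75.2-fold higher, at 0.124, 71 and 500 CPM in the cervix and 0.344, 0.893 and 6.04 CPM in the myometrium (log2 difference 6.23 ± 0.936, adjusted p = 1.96e-05). Il33 and Ccl11 were without overlap, and Cxcl5 overlapped only through cervix library 5, at 0.124 CPM. Il1b, a proinflammatory cytokine, was at 0.803, 16.5 and 60.1 CPM in the cervix and 1.26, 2 and 6.6 CPM in the myometrium (log2 difference 3.08 ± 0.641, adjusted p = 0.000608), but not called in the 4 shallower cervix libraries 7, 9, 10 and R3 against all myometrium libraries (log2 difference 0.78, adjusted p = 0.264).

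Neutrophil genes gave a difference that rested on some of the cervix libraries. Of 5 markers tested, 4 were higher in the cervix and none in the myometrium (median log2 difference 3.23), while 6 further markers of the list were not tested. S100a8 was at 0, 15.1 and 93.4 CPM in the cervix and 0.88, 1.64 and 5.39 CPM in the myometrium (log2 difference 3.71 ± 0.845, adjusted p = 0.00136) and S100a9, its partner in the antimicrobial complex calprotectin, at 0.452, 17.1 and 91.3 CPM in the cervix and 0.796, 1.83 and 5.39 CPM in the myometrium (log2 difference 3.98 ± 0.826, adjusted p = 0.000588). Summed neutrophil markers stood at 81.5 to 246 CPM in cervix libraries 1, 2, 3, 4 and 6 and at 5.42 to 31.2 CPM in libraries 5, 7, 9, 10 and R3, against 9.29 to 116 CPM in the myometrium. That range takes in cervix libraries 2 and 3, at 103 and 81.5 CPM. With the 4 shallower cervix libraries alone, 1 marker was called, and S100a8 (0.35, adjusted p = 0.719) and S100a9 (0.68, adjusted p = 0.369) were not. Type I interferon response genes gave 11 higher in the cervix and 2 in the myometrium of 31 tested, but 5 and 1 without the 5 myometrium libraries rich in Afp, 6 and 3 with the shallower cervix libraries, and 4 and 2 with the replicate block. Mx1, an antiviral GTPase, was 10.6-fold higher in the cervix, at 2.48, 47.9 and 196 CPM in the cervix and 4.12, 6.08 and 8.11 CPM in the myometrium (log2 difference 3.4 ± 0.447, adjusted p = 3.8e-06), and Ifit1, a sensor of foreign RNA ends, was at 11.4, 66.6 and 360 CPM in the cervix and 7.84, 16.5 and 33.8 CPM in the myometrium (log2 difference 2.6 ± 0.541, adjusted p = 0.000609). Bst2, the tethering factor tetherin, which belongs to the same response, was without overlap in the other direction, at 8.4, 18.9 and 38.5 CPM in the cervix and 58.9, 79.3 and 99.9 CPM in the myometrium (log2 difference -1.8 ± 0.258, adjusted p = 1.02e-05).

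Some nerve and Schwann cell genes were higher in the cervix. Of 8 nerve and Schwann cell markers tested, 5 were higher there and none in the myometrium (median log2 difference 1.32), and 6 further markers of the list were not tested. Summed over all 14 members, the markers overlapped, at 54.4, 95 and 216 CPM in the cervix and 63.7, 74.5 and 97 CPM in the myometrium. Cdh19, a cadherin of the Schwann cell lineage, was at 2.83, 9.26 and 22.1 CPM in the cervix and 0, 0.307 and 0.48 CPM in the myometrium (log2 difference 5.26 ± 0.468, adjusted p = 1.74e-08). All cervix libraries lay above all myometrium libraries. Levels were low in both tissues, so counting error is a larger part of these values than of most above.

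Ribosomal protein genes were higher in the cervix by a small margin. Of 76 cytosolic ribosomal protein genes tested, 60 were higher in the cervix and none in the myometrium, with a median log2 difference of 0.53, among them Rps27 at 586, 735 and 826 CPM in the cervix and 298, 403 and 616 CPM in the myometrium (log2 difference 0.82 ± 0.12, adjusted p = 1.37e-05), 1.76-fold. Leaving out the 5 Afp-rich myometrium libraries brought that count to 29. Of 73 nuclear genes of oxidative phosphorylation tested, 8 were higher in the cervix and 4 in the myometrium, below the 24.3% and 19.4% of all genes tested. Without the Afp-rich libraries these counts were 1 and 4. Of 30 heat shock and unfolded protein genes tested, 16 were higher in the myometrium and 4 in the cervix (median log2 difference -0.43), or 9 and 2 without the Afp-rich libraries, among them the small heat shock protein Cryab at 10.2, 21 and 50.5 CPM in the cervix and 83.3, 142 and 213 CPM in the myometrium (log2 difference -2.52 ± 0.273, adjusted p = 2.66e-07), with no overlap. Of 22 immediate early genes tested, 10 were higher in the cervix and 4 in the myometrium, and 4 and 7 of 21 without cervix libraries 1, 3 and 5, or 5 and 3 without the Afp-rich libraries. Of 13 aquaporins and water or salt transporters tested, 4 were higher in the cervix and 3 in the myometrium, and Aqp3, the glycerol and water channel of squamous epithelium, was 155-fold higher in the cervix, at 13.5, 79.3 and 207 CPM in the cervix and 0.08, 0.38 and 1.49 CPM in the myometrium (log2 difference 7.28 ± 0.516, adjusted p = 6.93e-10), with no overlap. Of 19 fatty acid genes tested, 9 were higher in the cervix and 2 in the myometrium, with Scd1, a desaturase, at 40.5, 181 and 1875 CPM in the cervix and 27.3, 44.7 and 83.9 CPM in the myometrium (log2 difference 3.37 ± 0.667, adjusted p = 0.000381). Its highest value was that of cervix library 1, and without cervix libraries 1, 3 and 5 the log2 difference was 1.47. Of 24 cholesterol synthesis genes tested, 5 were higher in the myometrium and 2 in the cervix, and without the Afp-rich libraries 2 and 5.

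Some of the largest differences belonged to RNA known from neighbouring or fetal tissue. All 8 yolk sac markers tested were higher in the myometrium (median log2 difference -6.57), and 5 were without the 5 Afp-rich libraries (median -2.80), and 4 under voom. Afp was at 0.495, 5.18 and 36.4 CPM in the cervix and 62.3, 1982 and 20211 CPM in the myometrium (log2 difference -8.84 ± 1.28, adjusted p = 1.25e-05), and Apoa1, an apolipoprotein made by yolk sac and liver, was at 0.226, 0.996 and 3.94 CPM in the cervix and 5.39, 133 and 1626 CPM in the myometrium (log2 difference -7.96 ± 1.07, adjusted p = 5.47e-06). Neither overlapped, and Afp itself ran from 62.3 CPM in library 6 to 20211 CPM in library 10 of the myometrium. Summed over the list, yolk sac markers ran from 179 CPM in library 6 to 31440 CPM in library 10 of the myometrium and from 12.9 to 102 CPM in the cervix. Of 8 trophoblast and decidua markers tested, 5 were higher in the myometrium, among them the placental prolactin Prl8a2 at 0, 0 and 1.7 CPM in the cervix and 0.271, 28.4 and 1319 CPM in the myometrium (log2 difference -9.68 ± 1.63, adjusted p = 6.99e-05). Most of that Prl8a2 was in myometrium library 1 (1319 CPM, against 52.5 CPM or less in the other 9), and the log2 difference was -6.87 without it. Under voom Prl8a2 no longer passed (-5.72, adjusted p = 0.0717). The count of the list was 1 under voom, 2 with the replicate block and 2 with the shallower cervix libraries. Ctla2a and Kap, also higher in the myometrium, are in neither the yolk sac list nor the trophoblast and decidua list. Ctla2a, a protease inhibitor abundant in the pregnant uterus, was at 18.9, 7380 and 12935 CPM in the cervix and 14194, 21186 and 29356 CPM in the myometrium (log2 difference -1.66 ± 0.526, adjusted p = 0.0144). Kap, the androgen-regulated kidney protein, was at 0, 0.269 and 33.3 CPM in the cervix and 274, 1522 and 2836 CPM in the myometrium (log2 difference -8.15 ± 1.17, adjusted p = 1.15e-05). Both were without overlap, and Kap was highest in myometrium library 6, the library lowest in Afp (62.3 CPM). Ctla2a did not pass without the Afp-rich libraries (-1.84, adjusted p = 0.0559). The part of fetal membrane RNA in the myometrium differences was not tested.

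Markers of skeletal muscle, bladder lining and fat were called higher in the cervix. Of 7 skeletal muscle markers tested, 5 were called higher in the cervix, 2 without cervix libraries 1, 3 and 5, and 2 without the Afp-rich libraries. Myh2, a fast skeletal myosin, was at 0, 9.6 and 448 CPM in the cervix and 0, 0.452 and 1.99 CPM in the myometrium (log2 difference 6.12 ± 1.33, adjusted p = 0.000918), and without cervix library 1 the log2 difference was 3.42. Myh2 did not pass in 5 alternatives, among them the replicate block (3.22, adjusted p = 0.0815), voom (1.41, adjusted p = 0.37) and the shallower cervix libraries (1.72, adjusted p = 0.168). The list count was 0 with the block. Upk1b, a plaque protein of the bladder lining, was at 0.339, 6.01 and 1118 CPM in the cervix and 0.916, 5.8 and 19.1 CPM in the myometrium (log2 difference 4.26 ± 1.23, adjusted p = 0.00788), with 1118 CPM in cervix library 5. Without that library the difference was 2.46 (adjusted p = 0.0487), and without libraries 1, 3 and 5 it was 0.95 and no longer passed (adjusted p = 0.404). Of 3 urothelium markers tested, 2 were called higher in the cervix, and without those 3 libraries none in the cervix and 1 in the myometrium. All 4 adipocyte markers tested were higher in the cervix, and 2 of 3 without those libraries, with Adipoq, the fat hormone adiponectin, at 0.425, 36.8 and 369 CPM in the cervix and 0, 0 and 16.7 CPM in the myometrium (log2 difference 5.64 ± 1.36, adjusted p = 0.00216). Adipoq did not pass with the shallower cervix libraries (3.5, adjusted p = 0.0758). Summed adipocyte markers ran from 12.9 CPM to 3048 CPM in the cervix and from 6.92 to 131 CPM in the myometrium.

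**Figure D4:**
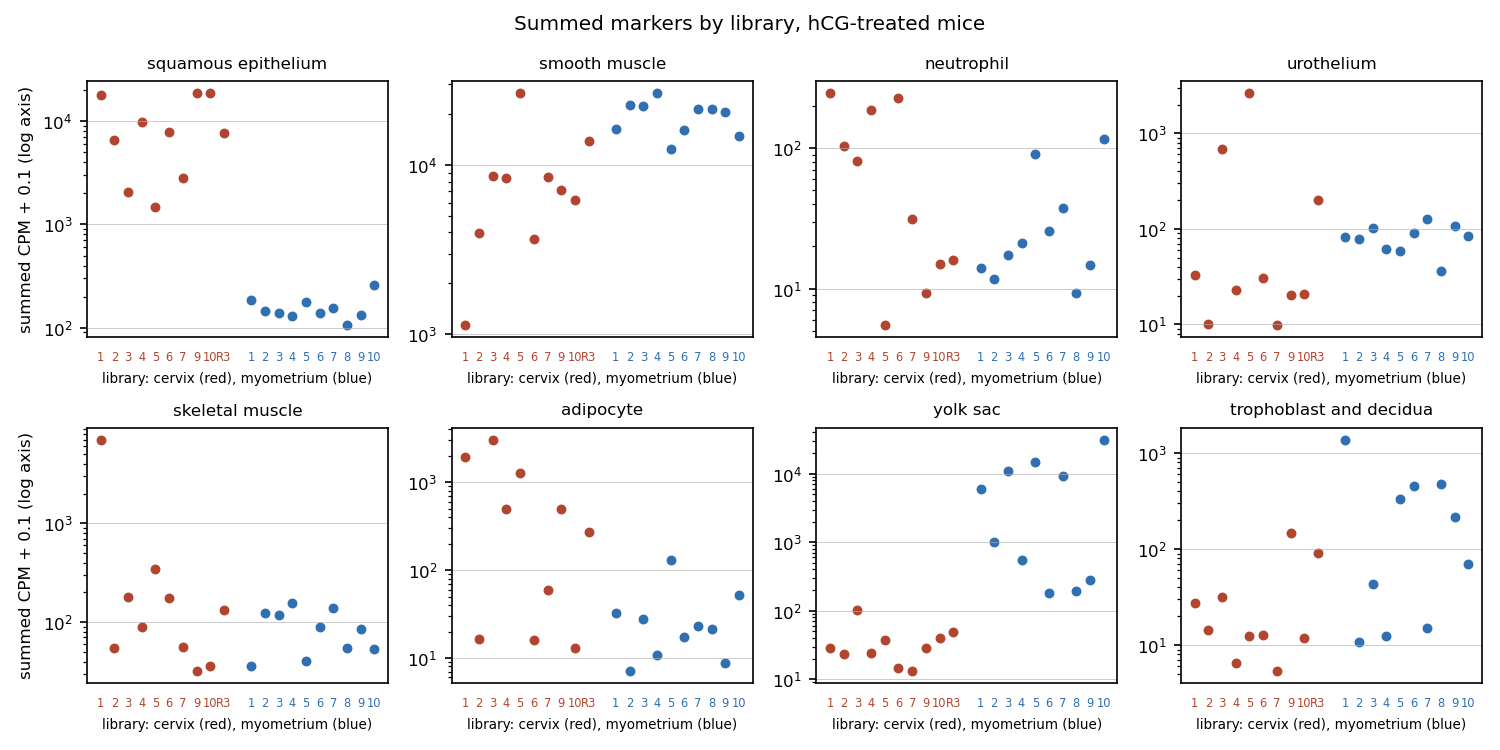
Summed CPM of 8 marker lists plus 0.1 on log axes, 1 point for each hCG library (red, cervix, blue, myometrium). Squamous markers separate the tissues in every library. In smooth muscle, cervix library R3 (13850 CPM) lies within the myometrium range of 12396 to 26598 CPM and cervix library 5 (26684 CPM) just above it. Cervix library 5 is also highest in urothelium, cervix library 1 stands alone in skeletal muscle, and yolk sac markers range from 179 to 31440 CPM within the myometrium.

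The tissue difference was also measured under PBS, in other libraries, and was mostly shared. Under PBS 7859 of 14545 genes differed (54%), 4070 higher in the cervix and 3789 in the myometrium. Among 14415 genes tested under both treatments, 4736 were called under both, 4711 of them in the same direction and 25 in the opposite one. These 4711 were 74.2% of the hCG calls tested in both and 60.8% of the PBS calls. Across genes, which are not independent replicates, the log2 differences correlated at Pearson's r = 0.903, and the median ratio of the hCG to the PBS difference was 0.835 over the genes called in both. Squamous markers gave 13 of 13 higher in the cervix under PBS (median 9.10), the cornified envelope 14 of 15 (median 5.72), Hox genes 5 in the cervix and 11 in the myometrium, and contractile genes 0 and 34 (median -1.25). Krt5 (13.29), Muc5b (12.98), Trp63 (9.1), Prom1 (-3.22) and Actg2 (-2.09) had PBS log2 differences with the same sign as under hCG.

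The difference between the tissue differences was tested in 1 fit of all 40 libraries. It was called for 55 of 15624 genes (0.352%), 20 with a higher cervix-to-myometrium difference under hCG and 35 with a lower one. The count was 0 with the replicate block, 2 without cervix hCG libraries 1, 3 and 5, and 1138 without PBS cervix libraries 5 to 8, in which the mitochondrial tRNA synthetase gene Lars2 took 3.51% to 17.5% of the counts. Lars2 also took 5.22% in myometrium hCG library 3, 5.63% in myometrium PBS library 2 and 4.61% in myometrium PBS library 8, which stayed in that fit. Il1b was the only one of the labour panel called, with log2 differences of 3.08 under hCG and -0.04 under PBS and a difference of 3.10 (adjusted p = 0.0410). Clec7a and Ifi27l2a, an antifungal lectin receptor and an interferon-induced gene, had differences of 1.99 and 2.01 (adjusted p = 0.0392 for both). H2ac6, a histone gene, had -1.07 under hCG and 1.26 under PBS, a difference of -2.33, and Hoxd3os1, a Hox antisense transcript, had -0.48 and -3.33, a difference of 2.82. Elovl1, Manf, Kctd5, Eaf1 and Mboat2 had differences between -1.05 and -0.75, and Lilr4b one of 1.83. These genes were lost without cervix hCG libraries 1, 3 and 5 and with the replicate block. Oxtr had 0.28 under PBS against -1.04 under hCG, and the difference of -1.32 did not pass (adjusted p = 0.245).

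The counts of some lists under hCG and under PBS were unequal. Calls were also more frequent over all genes under PBS, at 54% against 43.7% under hCG. Under PBS 4070 genes were higher in the cervix and 3789 in the myometrium of 14545 tested. Under hCG these were 3639 and 2908 of 14974, and the list counts below are to be read against both. Under PBS 20 of 24 cholesterol genes were higher in the cervix and 2 in the myometrium (median log2 difference 1.19), against 2 and 5 under hCG (median 0.00). Sqle, the squalene epoxidase, had medians of 59 CPM in the cervix and 58.9 CPM in the myometrium under hCG and of 171 and 55.4 CPM under PBS, a difference of -1.50 between the tissue differences (adjusted p = 0.0486). Hsd17b7, a later enzyme of the pathway, also passed, at -3.82 (adjusted p = 0.0469), and the other 22 members did not. Mitotic cell cycle genes gave 24 of 30 higher in the cervix under PBS and 4 under hCG, or 15 without cervix library 5 and 17 without libraries 1, 3 and 5, with no member called in the test of the difference. Interferon response genes gave 4 higher in the cervix and 16 in the myometrium under PBS against 11 and 2 under hCG, heat shock and unfolded protein genes 10 and 5 against 4 and 16, and neutrophil markers 0 and 2 against 4 and 0, with Csf3r, the receptor of granulocyte colony-stimulating factor, called at 2.38 (adjusted p = 0.0486). The parts of treatment, tissue makeup and library differences in these counts were not tested.

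**Figure D5:**
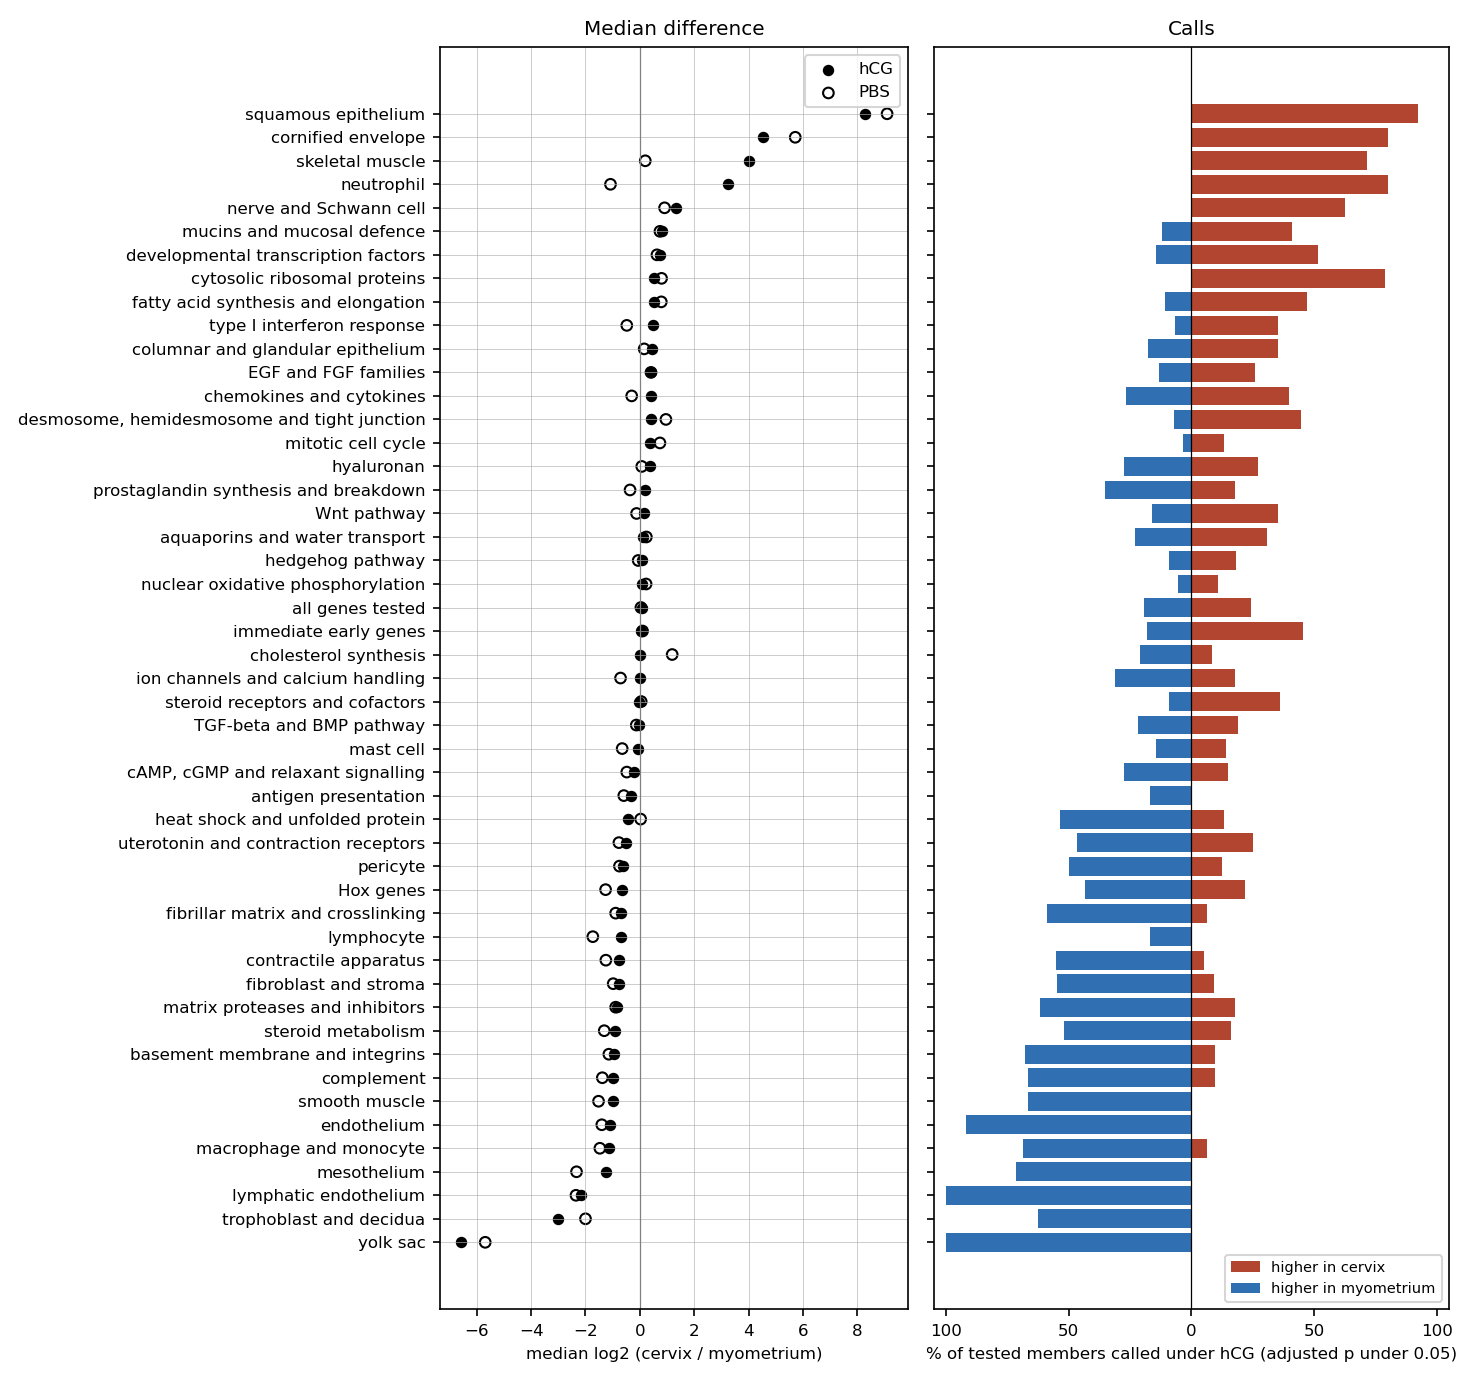
Median log2 difference of cervix over myometrium for each gene list with at least 5 members tested, under hCG (filled) and PBS (open), and the percent of tested members called in each direction under hCG, with all genes tested as 1 row. Squamous and envelope genes lead on the side of the cervix and yolk sac, trophoblast and lymphatic genes on that of the myometrium, and the cholesterol list lies at 0.00 under hCG and 1.19 under PBS.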

How the data were processed

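Total RNA of whole tissue was sequenced after TruSeq Stranded Total RNA preparation, per the labels' protocols. The authors deposited raw counts per gene, keyed by Entrez gene ID, for 40 libraries. TopHat version 2 and the GRCm38 (mm10) build are named in the submitters' processing notes, but neither the counter nor its strand setting is named there or in the labels, so overlapping and antisense genes cannot be told apart and near-identical copies such as Lilr4b, Ifi27l2a, H2ac6 and Ifit3 are uncertain. The columns headed uterus are the libraries labelled myometrium. Of 23079 IDs, 23008 were matched to RefSeq symbols, and the 71 others held 0.197% of the counts and stayed in the fit.

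Counts of the 10 cervix and 10 myometrium libraries of hCG-treated mice were fitted without covariates (R 4.3.3, edgeR 4.0.16, filterByExpr, TMM factors, robust quasi-likelihood F-test, Benjamini-Hochberg over all genes tested, threshold 0.05), with glmTreat for the 2-fold test, the same fit for PBS and an interaction fit of all 40 libraries with 4 groups. On simulated counts for 14885 genes with 200 of them to be changed, the hCG fit recovered 84.8% of the 2-fold and 97.9% of the 4-fold changes, and 7.3% of its calls were false. The real contrast called a far larger share of genes (43.7%), so these rates need not hold for its 6547 calls. No libraries were duplicates. CPM used TMM factors over 40 libraries. The filter drops genes absent from 1 cervix library and high in the rest, as the report counts. Depth limits low genes, and 3 counts were taken as the floor of a group at 0.

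The 19 marker lists, 32 process lists and a panel of 22 labour genes (1265 list genes, 8 unmatched) were chosen with earlier results of these data known. Named genes were the 12 largest called differences in each direction with a mean log2 CPM of at least 3, up to 4 called members with the smallest p of each list, the labour panel, the Hox genes tested, the 8 genes highest in each tissue and the 10 smallest p of the interaction, of which those with values in the text were chosen later, and some are not reported here. Spink5, Myl9, Vcl, Srf, Sqle, Hsd17b7 and Csf3r, and genes only listed by name, lie outside that rule or were picked after their values were seen. Promoters are RefSeq windows of GRCm38.p6. Alternatives covered normalization (TMM against RLE and upper quartile), filter, DESeq2 1.42.0, voom in limma 3.58.1, a replicate block, thresholds, each library left out, and sets of libraries left out for Afp, the last added after seeing the data.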

Additional observations from a re-analysis of the deposited data

Results flagged for a closer look

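Single libraries far from the other 9 of their tissue were looked for in 252 sets of 10 values (126 genes in both tissues), by the gap to the nearest value as a share of the range, against Dixon's 95% critical value. Chance flags about 1 in 20 such sets, and 34 were found.

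Cervix library 5 accounted for 15 of them. It was the lowest of its tissue for the mucus genes Muc5b (2.65 CPM), Tff1 (0.455 CPM), Agr2 (4.84 CPM) and Clca1 (3.64 CPM), for Krt13 (1.49 CPM), for the glandular gene Prom1 (8.65 CPM), for the steroid receptors Pgr (7.57 CPM) and Esr1 (30.5 CPM), and for Il33 (37.9 CPM), Cxcl5 (0.124 CPM), Mx1 (2.48 CPM), Akr1c18 (0.786 CPM), Ctla2a (18.9 CPM) and Tgfb2 (31.8 CPM). For Plau it was the highest (126 CPM). The genes low in this library include both genes higher in the cervix and genes higher in the myometrium. This library also had the highest summed urothelial markers of the cervix, whose part in this pattern was not tested.

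In other cervix libraries, library 7 was the lowest for Aqp3 (13.5 CPM) and Grhl3 (9.5 CPM), library 3 the highest for Csf1 (180 CPM) and Ctsb (1162 CPM), library 1 the lowest for Hoxa11 (6.1 CPM) and library 9 the highest for Prl8a2 (1.7 CPM).

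Myometrium library 5 was the highest of its tissue for Lhcgr (69.9 CPM), Ptgfr (106 CPM), Adipoq (16.7 CPM) and Ptges (13.8 CPM) and the lowest for Kcnj8 (34.2 CPM). Library 1 was the lowest for Chrm3 (0.199 CPM), Fgfr3 (1.19 CPM), Tgfb1 (1.99 CPM) and Col17a1 (0.0 CPM). Library 8 was the lowest for Clca1 (0.688 CPM) and the highest for Lox (845 CPM), library 3 the lowest for Kap (274 CPM) and library 4 the highest for Erbb4 (74 CPM).

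The tissue difference under hCG departed from that under PBS for 11 genes with values in the text, by the interaction test. The hCG minus PBS difference on the log2 scale was 1.99 for Clec7a, -0.75 for Eaf1, -0.88 for Elovl1, -2.33 for H2ac6, 2.82 for Hoxd3os1, 2.01 for Ifi27l2a, 3.1 for Il1b, -0.85 for Kctd5, 1.83 for Lilr4b, -0.93 for Manf and -1.05 for Mboat2. None passed without cervix hCG libraries 1, 3 and 5 or with the replicate block.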

How the results depend on the processing

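The count of 6547 genes stayed within 1.5 times under every alternative but 1, the 2 myometrium libraries with at most 100 CPM of Afp (1324 genes, 564 higher in the cervix and 760 in the myometrium), where fewer samples enter. It was 6101 to 7048 when each library was left out, 5805 with the replicate block (2898 and 2907), 7736 of 18602 genes with DESeq2 and 7276 with voom. The count higher in the cervix was 2247 without libraries above 1000 CPM of Afp and 2413 at an adjusted p of 0.01. Against 1.5-fold, 2239 genes passed. The share of calls higher in the cervix was 55.6%, 60.7% with upper-quartile factors, 49.9% with the replicate block and 42.6% with the 2 libraries low in Afp. For the difference between treatments the count of 55 became 0 with the replicate block (3486 at an unadjusted p under 0.05), 2 without cervix hCG libraries 1, 3 and 5, and 1138 without PBS cervix libraries 5 to 8. The cause was not tested. Of 111 called genes with values in the text, 71 kept their call under every alternative that tested them, 40 lost it at least in 1, and 0 reversed. Those 71 were tested in all 37 alternatives, except Tff1, tested in 36. The fit without myometrium library 3 stands under 2 names among the 37. Among the 14 not called, Ifi27l2a was -1.09 with the shallower cervix libraries and Ptgs2 was -1.32, -1.83 and -1.18 in sets without cervix library 5. Libraries with the same number correlated at -0.123 to 0.345, and 2 of 9 numbers (3 and 4) matched themselves best. Tissue pieces also differ in makeup, so these values cannot decide whether a number is a mouse. The numbers were not taken as pairs because the labels do not say that they are. Depth limits low genes such as Cdh19, and the filter left 24 cervix genes untested.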
